A study of Mus musculus with 24 samples.

Results

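Enhancers that lost histone H3 lysine 27 acetylation (H3K27ac) when mouse macrophages were given lipopolysaccharide (LPS) are described here. A member is a peak of H3 lysine 4 monomethylation (H3K4me1) in untreated cells that overlapped an H3K27ac peak in both untreated cultures and in neither LPS-treated culture. Members also lay 2500 bp or more from any peak of H3 lysine 4 trimethylation (H3K4me3), the mark of promoters, and overlapped no H3K27ac peak of 10 kb or wider in the untreated empty vector culture. There were 4330 members among the 61252 H3K4me1 peaks of the untreated scrambled-hairpin culture, or 7.07%. The overlap with H3K27ac chose them, so their H3K27ac values are a description and support nothing.

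The cells were bone marrow-derived macrophages, grown from the marrow of FVB/Hsd mice in medium with L929-conditioned supernatant and taken on day 7 of differentiation. All were infected with a retrovirus and selected with puromycin, and whether a mouse, a pool of mice or a culture stands behind each library is not given in the sources used here. The knockdown vector, sh1137, carries a short hairpin against Wdr82 and is called shWdr82 below. WDR82 is a subunit of the SET1 complexes that methylate H3K4 and of a phosphatase complex that acts on RNA polymerase II (Pol II). The control was the empty LMP vector for H3K27ac and H3K4me3, and a scrambled hairpin for H3K4me1, H3 lysine 36 trimethylation (H3K36me3), all Pol II (total Pol II) and the form of it that carries phosphate on serine 2 of its tail (Ser2P). Treated cells had LPS, a bacterial cell wall component, at 10 ng/ml. By the sample titles this lasted 4 h for H3K27ac and H3K4me3 and 45 min for the other antibodies, although the protocol names 4 h alone. Values for H3K4me1, H3K36me3 and Pol II after LPS therefore come from an earlier time than the loss of H3K27ac that chose the members.

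Enhancers are stretches of DNA that raise transcription of genes at a distance. H3K4me1 marks them whether they are in use or not, while H3K27ac, placed by p300 and CBP and removed by histone deacetylases, marks those in use, and many of these also carry Pol II that makes short enhancer RNAs. In macrophages LPS signals through TLR4 to NF-kB, AP-1 and interferon regulatory factors, and it changes the set of acetylated enhancers that PU.1 and its partners hold in resting cells. A site with H3K4me1 and no H3K27ac is called primed.

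Each of the 24 libraries gave a list of called peaks, with 1 library in each group, so conditions were compared without a test and p-values are not reported. Shares carry exact (Clopper-Pearson) 95% intervals, and paired differences between them 95% Wald intervals. Both cover counting error only and not the spread between cultures. Read depth is unknown, and a region without a peak may still hold signal below the calling threshold. The H3K27ac lists held 28462 to 32486 peaks, the H3K4me1 lists 60602 to 65149 and the H3K36me3 lists 33445 to 38062. The total Pol II lists were unequal, with 32385 and 28497 peaks in untreated cells against 21891 and 22307 after LPS. The Ser2P lists held 14420 to 16744 peaks, and the list of shWdr82 cells after LPS covered 60.6 Mb against 43.0 to 46.0 Mb in the others. Genes near the members, the level of Wdr82 itself and macrophage marker genes were not analysed here.

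The members were drawn from 13131 distal regions with H3K27ac in both untreated lists. Of these, 4330 had an H3K27ac peak in neither LPS list, a share of 33.0% (32.2 to 33.8) that is the background itself, since the rule used this contrast. Another 7372 regions, 56.1%, had a peak in both LPS lists and are called retained. A further 768 had it in the empty vector LPS list alone and 661 in the shWdr82 LPS list alone. The regions held by LPS lists and not by untreated ones, called gained, numbered 2197, and 19718 distal H3K4me1 peaks were primed, with H3K27ac in no list. For scale, only 33 and 58 regions had the crossed patterns that join an untreated list of one vector with the LPS list of the other, while 122 were held by the empty vector alone and 101 by shWdr82 alone.

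The losses called in the 2 vectors overlapped in large part. Losses chosen on the empty vector pair alone numbered 5903 of 14536 regions (40.6%), and those chosen on the shWdr82 pair alone 6459 of 15038 (43.0%). The 4330 members are 73.4% of the former and 67.0% of the latter. H3K27ac was present in untreated cells of the other vector at 84.6% of the empty vector losses and 78.9% of the shWdr82 losses. Of the empty vector losses that had H3K27ac in untreated shWdr82 cells, 86.8% (85.8 to 87.7) were also lost there, against 9.43% (8.81 to 10.1) of regions the empty vector retained. In the other direction, 84.9% (83.9 to 85.9) of shWdr82 losses were also lost in the empty vector, against 8.23% (7.64 to 8.85) of those shWdr82 retained. These shares rest on the 4 H3K27ac lists that chose the members and are a description. After LPS, 1429 regions, 10.9% (10.4 to 11.4) of the 13131 had H3K27ac in the list of a single vector.

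Before LPS, members carried weaker and narrower H3K27ac peaks than retained enhancers. The peak score, the peak caller's own measure of how far a peak stands above background, ran from 50 to a ceiling near 3100. In the empty vector list its median was 213 in members (quartiles 108 and 521) and 1018 in retained enhancers (318 and 2819). In the shWdr82 list it was 262 in members (125 and 667) and 1201 in retained enhancers (363 and 3100). The median width of these peaks was 1998 bp against 3191 bp in the empty vector list and 2284 bp against 3578 bp in the shWdr82 list. The distributions overlap widely, and members reach the top of the scale.

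The share of regions that lost H3K27ac fell step by step with the untreated score. By the empty vector score it was 60.2% (57.7 to 62.6) at scores of 50 to 100, 53.5% at 100 to 200 and 39.9% at 200 to 500. It was 30.1% at 500 to 1000, 15.2% at 1000 to 3000 and 6.22% (5.19 to 7.38) at 3000 or more. The shWdr82 score gave the same order, from 59.1% (56.4 to 61.8) in the lowest class to 10.0% (8.87 to 11.3) in the highest. A peak near the threshold needs only a small drop to leave a list, and small and large drops cannot be told apart in the lowest classes. Members with scores under 100 made up 21.8% in the empty vector list and 18.0% in the shWdr82 list. At the other end, 419 members (9.68%) scored 1000 or more in both untreated lists, and 92 of them 3000 or more.

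**Figure D1:**
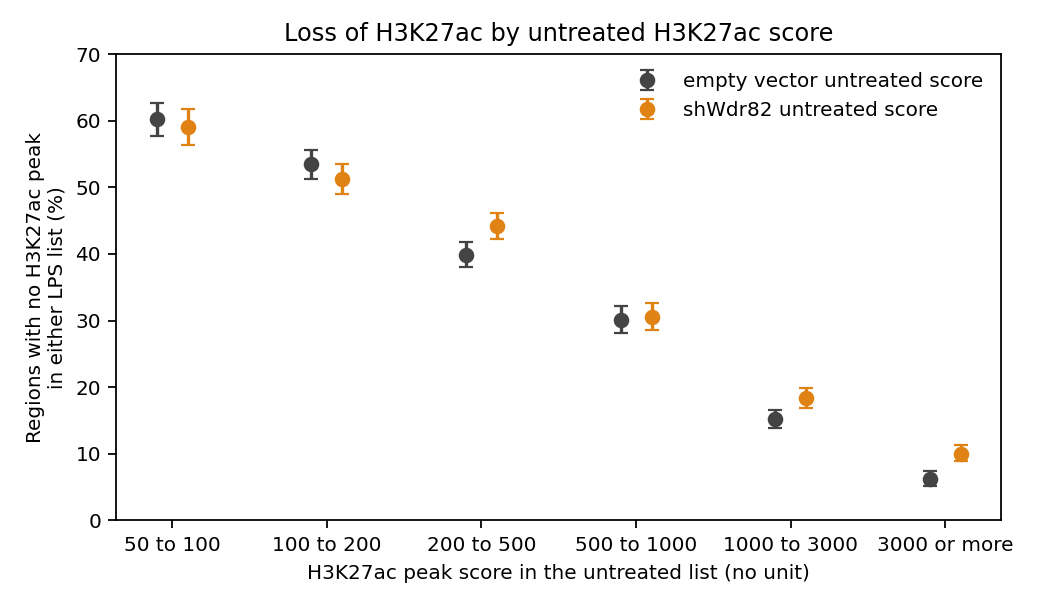
Share of distal H3K4me1 regions with H3K27ac in both untreated lists that had no H3K27ac peak in either LPS list (y axis, percent), by class of the untreated H3K27ac peak score (x axis, no unit). Points are shares and bars exact 95% intervals, black for the empty vector score and orange for the shWdr82 score; both fall from about the same start, 60.2% and 59.1%, to 6.22% and 10.0%.

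At most members the whole acetylated peak was without a call after LPS. In 4055 members, 93.6% (92.9 to 94.4), no part of the untreated H3K27ac peaks over the member overlapped an LPS peak. The rule sets much of this share, since it allowed no LPS peak over the member itself. Members had a median width of 2380 bp, against 1998 bp for their H3K27ac peaks in the empty vector list. The share is a description. In the other 275 members, 6.35%, the untreated peak reached past the member and a piece of it kept H3K27ac. These partial losses sat on wider and stronger peaks, with a median width of 3820 bp against 1947 bp for whole losses in the empty vector list and a median score of 1098 against 202. Neighbouring members can share an acetylated peak: 320 members did so in the empty vector list and 383 in the shWdr82 list, with at most 3 members on 1 peak.

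The strongest members show both kinds of loss. The rule for naming regions takes those with the highest lower score of the 2 untreated lists; the first 10 all stood at the ceiling of 3100 and were ordered by position, so they lie on chromosomes 1 and 2 of the mm9 build. The enhancer at chr2:12126415-12131561 had H3K27ac scores of 3222 in empty vector and 3100 in shWdr82 cells before LPS, under peaks of 5861 and 7208 bp, and no peak after it. Its H3K4me1 score was 562 and 791 in untreated scrambled and shWdr82 cells and 1312 and 1023 after LPS. All 4 lists thus held an H3K4me1 peak there, and the nearest LPS H3K27ac peak lay 28567 bp away. The H3K4me1 lists after LPS come from an earlier time than those of H3K27ac. H3K4me1 after the loss of H3K27ac was not measured.

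The enhancer at chr2:37187718-37190807 behaved likewise. Its H3K27ac score was 3100 in both untreated lists, and its H3K4me1 scores were 1111 and 989 untreated and 1035 and 1043 after LPS. No Pol II, Ser2P or H3K36me3 peak was called there in any list. At chr1:134265897-134270121 the H3K27ac score was again 3100 in both untreated lists, and total Pol II scored 312 in scrambled and 282 in shWdr82 cells before LPS and had no peak after it. A Ser2P peak with a score of 2518 was called there in shWdr82 cells after LPS alone. The nearest remaining H3K27ac peaks stood 24795 bp from it or farther.

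Of the 10 regions, 4 were partial losses. At chr1:196500407-196506509 the untreated H3K27ac peaks were 8780 and 9241 bp wide and LPS peaks remained 86 bp away in the empty vector list and 43 bp away in the shWdr82 list. The neighbouring member at chr1:196491744-196494883 lay under the same untreated peaks, with LPS peaks 1457 and 2081 bp away. Here the acetylated stretch was not lost as a whole. At chr1:39359870-39361935 the nearest LPS peaks were 731 and 662 bp away, and H3K4me1 was called in 3 of the 4 lists, with scores of 116 in untreated scrambled, 89.3 in LPS-treated scrambled and 748 in LPS-treated shWdr82 cells.

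The limits of the rule cut through like regions. The member nearest to H3K4me3, at chr4:137394642-137396568, lay 2503 bp from it with H3K27ac scores of 178 and 253, and a region left out at chr10:61953209-61954769 lay 2495 bp from it with scores of 261 and 205. In the untreated empty vector list, which alone sets the limit on width, the widest H3K27ac peak over a member was 9982 bp, at chr5:24593678-24600415, and the narrowest that led to exclusion 10190 bp, at chrX:93419085-93420678. In all 78 regions with the H3K27ac pattern of a member were left out for such width. A member on chromosome 8 had an LPS H3K27ac peak that touched it with no shared base, while a region on chromosome 12 was left out for 4 shared bases.

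H3K4me1 stayed at nearly all members. A peak was called at 94.8% (94.1 to 95.4) of members in scrambled cells after 45 min of LPS, at 91.3% (90.4 to 92.1) in untreated shWdr82 cells and at 91.6% (90.7 to 92.4) in shWdr82 cells after LPS. All 4 lists held it at 3689 members, 85.2% (84.1 to 86.2). The scrambled untreated list chose the members, so every other list can only fall short of it. Of members with H3K4me1 in untreated scrambled cells, 5.20% had none after LPS, against 13.6% of all distal regions. In shWdr82 cells, where the rule did not use H3K4me1, this share was 4.43% (3.81 to 5.12) against 8.00%. There, 175 members had a peak before LPS alone and 189 after it alone, a difference of 0.323 percentage points (-0.540 to 1.19).

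These shares resemble those of retained enhancers more than those of primed sites. Retained enhancers held H3K4me1 at 97.1% in scrambled cells after LPS and at 94.0% and 93.5% in shWdr82 cells without and with it. Primed sites held it at 78.9%, 74.0% and 75.2%, and gained sites at 87.0%, 78.9% and 82.7%. The H3K4me1 peak that defined a member had a median score of 330, against 515 at retained, 147 at gained and 118 at primed sites. Its median width was 2380 bp, against 3146, 1671 and 1377 bp. The classes were not compared at like H3K4me1 score or width. Nor were members and the distal background, of which primed sites made up 50.1%. Where 1 peak overlapped 1 peak, the median log2 ratio of H3K4me1 width to the defining peak was -0.01 in scrambled cells after LPS, so the typical member kept its width. It was -0.00 in untreated and 0.02 in LPS-treated shWdr82 cells.

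With the Wdr82 hairpin, H3K4me1 was missing at 8.73% (7.91 to 9.61) of members in untreated cells, against 18.2% of all distal regions. After LPS, 6.21% (5.49 to 6.99) of members with the peak in scrambled cells lacked it in shWdr82 cells, against 11.0%. Neither comparison was made at like H3K4me1 score. The difference over all members after LPS was -3.21 percentage points (-4.08 to -2.34), close to the -3.66 of retained enhancers and the -3.77 of primed sites. Scores of H3K4me1 in shWdr82 lists were lower over whole lists too, with a median of 153 against 186 in untreated cells.

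Total Pol II was present at a minority of members and fell within 45 min of LPS. A peak was called at 688 members, 15.9% (14.8 to 17.0), in untreated scrambled cells and at 286, 6.61% (5.88 to 7.39), after LPS. In shWdr82 cells it was called at 565, 13.0% (12.1 to 14.1), and at 367, 8.48% (7.66 to 9.35). The change was -9.28 percentage points (-10.4 to -8.17) in scrambled and -4.57 (-5.68 to -3.46) in shWdr82 cells. After LPS the share at members was close to that at primed sites, 7.28% and 7.43% in the 2 vectors, from which it had stood well apart before, at 8.86% and 8.11%. Retained enhancers went from 31.4% to 24.8% in scrambled and from 26.8% to 27.3% in shWdr82 cells, and gained sites rose from 9.70% to 13.9% and from 9.42% to 17.4%. These shares count any overlap, while median widths were 2380 bp at members, 3146 bp at retained enhancers and 1377 bp at primed sites. By length covered, members went from 11.1% to 5.71% in scrambled and from 9.80% to 6.91% in shWdr82 cells. Primed sites went from 8.51% to 7.67% and from 8.03% to 7.83%, so by this measure members were below them after LPS. The part of region width was not tested.

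The total Pol II lists were shorter after LPS, which can lower a share. With each list cut to its 21891 highest-scoring peaks, the share of members fell from 9.77% (8.90 to 10.7) to 6.61% in scrambled and from 9.58% (8.72 to 10.5) to 8.41% (7.60 to 9.27) in shWdr82 cells. In shWdr82 cells these intervals overlap. With the same peak numbers, retained enhancers rose from 21.1% to 24.8% and from 20.1% to 27.0%, and primed sites from 5.86% to 7.28% and from 6.01% to 7.31%. Gained sites rose from 6.96% to 13.9% and from 7.51% to 17.3%, so that of the 4 classes only members had a lower share after LPS at equal list length. The share was lower after LPS in both vectors under all 14 alternatives tried for it. Of these, only the cut to 21891 peaks made the total Pol II lists equally long. With uncut lists, the share was lower on 20 of 20 chromosomes in scrambled cells and on 17 of 20 in shWdr82 cells. In the latter, values were equal on chromosomes 16 and 17 and higher after LPS on chromosome 10. The chromosomes of a condition share the same library, and the uncut lists were shorter after LPS. These counts are therefore a description and not repeats of the result.

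**Figure D2:**
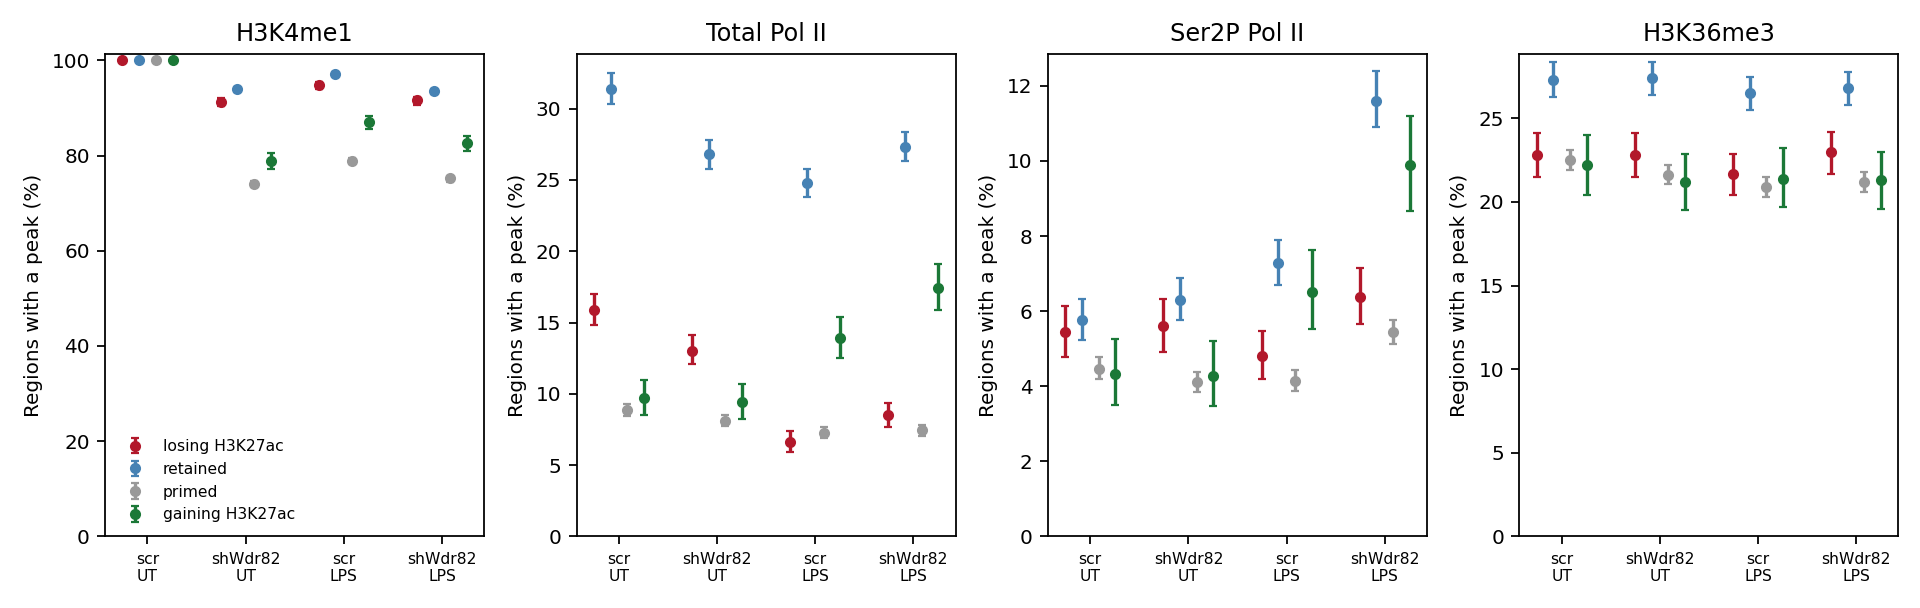
Share of regions with a called peak (y axis, percent) of H3K4me1, total Pol II, Ser2P Pol II and H3K36me3 in each library (x axis; scr, scrambled hairpin; UT, untreated; LPS, 45 min), for members (red), retained (blue), primed (grey) and gained sites (green), with exact 95% intervals. The scrambled untreated H3K4me1 list stands at 100% by the rule; total Pol II at members falls from 15.9% and 13.0% to 6.61% and 8.48%, next to the primed sites.

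Members that held total Pol II before LPS more often lacked it afterwards than other distal regions. Of the 688 members with a peak in untreated scrambled cells, 76.2% (72.8 to 79.3) had none after LPS, against 58.8% of all distal regions, 56.0% (53.9 to 58.0) of retained enhancers and 56.8% (54.4 to 59.1) of primed sites. In shWdr82 cells it was 71.3% (67.4 to 75.0) of 565 members, against 57.9%, 54.3% (52.1 to 56.5) and 57.0% (54.6 to 59.5). A new peak after LPS appeared at 3.35% (2.79 to 3.99) of members without one in scrambled cells, against a background of 6.39%, and at 5.44% (4.74 to 6.22) against 8.32% in shWdr82 cells. The distal background includes the members themselves, and the spread between cultures behind these shares is unknown.

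The gap to retained enhancers was also present among Pol II peaks of like score, up to a score of 500. In scrambled cells, 89.5% (85.1 to 93.0) of members with Pol II scores of 50 to 100 lost the peak, against 68.1% (64.4 to 71.5) of retained enhancers in that class. At scores of 100 to 200 the shares were 81.9% and 58.3%, and at 200 to 500 they were 74.3% and 55.8%. At 500 or more they were 39.8% (30.7 to 49.5) and 34.1% (29.7 to 38.7), with overlapping intervals. The shWdr82 lists gave 84.0%, 73.0%, 73.3% and 39.8% at members, against 64.6%, 54.9%, 52.7% and 33.1%. Primed sites gave 70.5%, 59.3%, 58.2% and 37.8% in scrambled cells. In shWdr82 cells at scores of 100 to 200 members and primed sites had overlapping intervals, at 73.0% (64.9 to 80.2) and 67.2% (61.9 to 72.1). In the highest class, members, retained and primed sites could not be separated at these numbers.

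**Figure D3:**
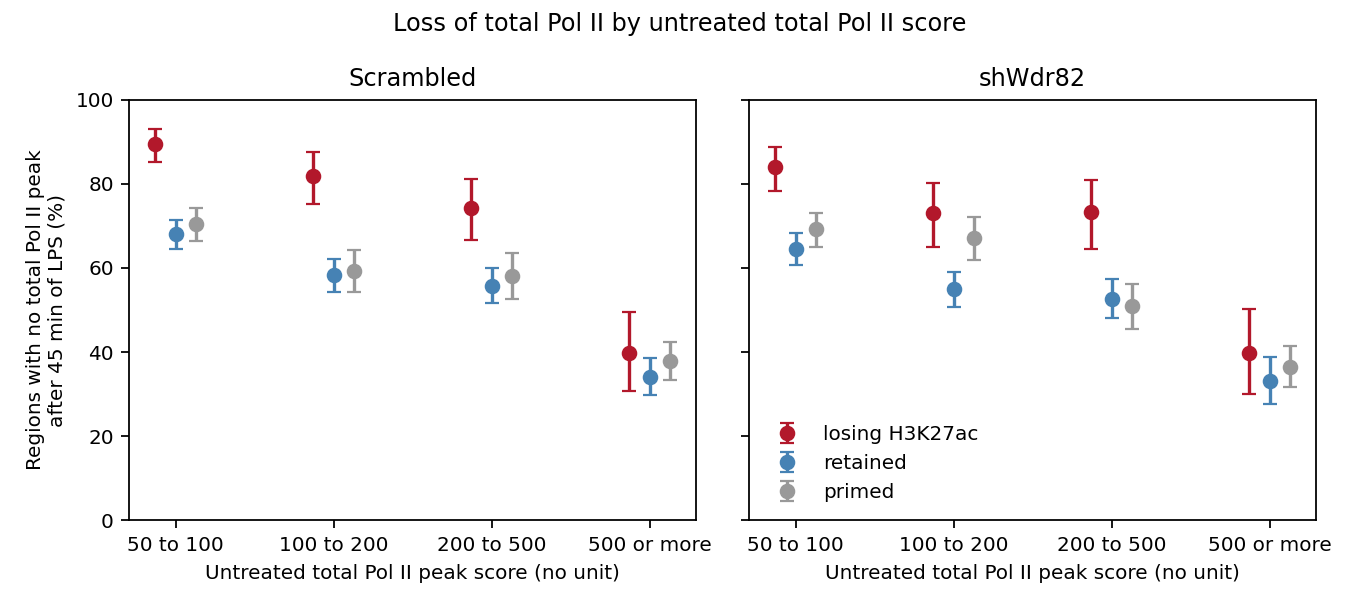
Share of regions with a total Pol II peak before LPS that had none after 45 min (y axis, percent), by the untreated Pol II peak score (x axis, no unit), for members (red), retained (blue) and primed sites (grey), with exact 95% intervals. Members stand above retained enhancers in the 3 lower classes of both vectors (89.5% against 68.1% in the lowest class of scrambled cells), and in the highest class the intervals overlap.

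Since members had weaker H3K27ac than retained enhancers, the classes were also compared at like H3K27ac scores. At empty vector scores of 200 to 500, total Pol II in untreated scrambled cells was called at 15.4% (13.3 to 17.6) of members and 16.8% (14.8 to 18.9) of retained enhancers. After LPS the shares were 6.29% (4.95 to 7.85) and 18.7% (16.6 to 20.9). In shWdr82 cells they went from 11.5% and 15.6% to 8.30% and 21.9%. At scores of 1000 or more the classes differed before LPS already, at 24.8% (21.2 to 28.7) and 44.1% (42.5 to 45.7), and members fell to 4.77% (3.11 to 6.96) while retained enhancers fell to 29.8%. Members with the strongest H3K27ac thus had the highest share before LPS and the lowest after it, although after LPS the intervals of the 5 score classes overlap.

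**Figure D4:**
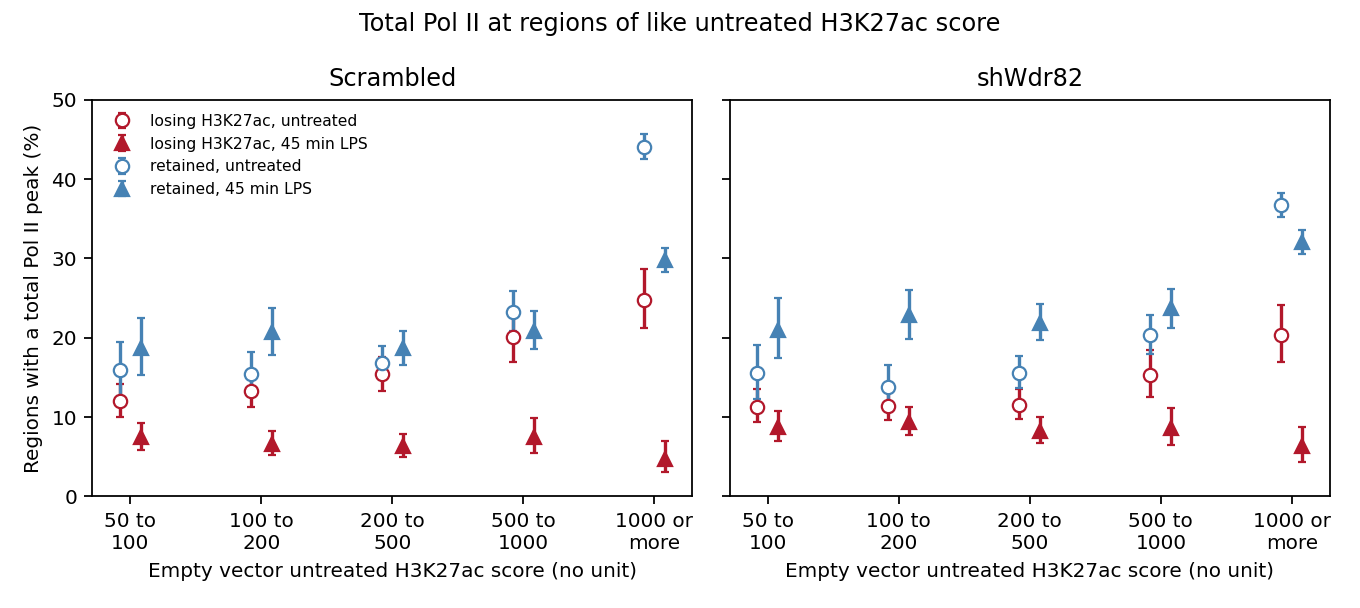
Share of regions with a total Pol II peak (y axis, percent) by class of the empty vector untreated H3K27ac score (x axis, no unit), in scrambled (left) and shWdr82 cells (right); open circles are untreated, triangles 45 min of LPS, red members and blue retained enhancers, with exact 95% intervals. At scores of 200 to 500 in scrambled cells both classes start near 16% (15.4% and 16.8%) and part to 6.29% and 18.7%.

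Total Pol II at members differed between the shWdr82 and scrambled libraries in opposite directions without and with LPS, in lists of unequal length. Untreated, shWdr82 cells had a peak at fewer members than scrambled cells (difference -2.84 points, -3.74 to -1.94); 38.1% (34.4 to 41.8) of the 688 scrambled peaks were missing, against 32.9% over distal regions. After LPS they had it at 1.87 points more (1.15 to 2.59); a peak appeared at 4.13% (3.54 to 4.79) of members without one in scrambled cells, against 4.83%. Retained enhancers differed in the same directions, by -4.58 and 2.50 points. With lists of equal length the untreated difference nearly vanished, at 9.77% and 9.58%, while that after LPS was 6.61% against 8.41%.

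A set of 272 members, 6.28% (5.58 to 7.05), had total Pol II in both untreated lists and in neither LPS list. They are 63.8% (59.1 to 68.4) of the 426 members with the peak in both untreated lists, against 45.1% of all distal regions. Their H3K4me1 remained, at 98.9% (96.8 to 99.8) in scrambled and 93.8% in shWdr82 cells after LPS. Ser2P, the form of Pol II found during elongation, was called at 21.7% (16.9 to 27.1) and 18.8% of them before LPS and at 9.56% (6.34 to 13.7) and 9.19% after it. Ser2P is a form of the Pol II that chose this set, so these shares are a description.

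The set includes a region at chr2:163052877-163060262 with high scores of every enhancer mark. Its H3K27ac score was 3100 in both untreated lists, and total Pol II scored 1635 in scrambled and 1124 in shWdr82 cells. Neither had a peak after LPS. H3K4me1 scored 3100 and 3128 untreated and 2909 and 2239 after LPS. The LPS lists of total Pol II and H3K4me1 come from an earlier time than those of H3K27ac. The nearest LPS H3K27ac peak was 61989 bp away in the empty vector list and 176395 bp in the shWdr82 list.

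The other 4 named regions of the set overlapped H3K36me3, the mark left along transcribed gene bodies, in 3 or all of its 4 lists. At chr2:119918931-119920208 total Pol II scored 3100 in both untreated lists and H3K36me3 3100 in 3 of 4 lists. At chr11:43536105-43537608 total Pol II scored 2222 and 2302 while H3K27ac scored only 54.5 and 66.9, and Ser2P peaks stayed in all 4 lists, with scores of 1798 and 2375 untreated and 1492 and 2275 after LPS. At chr14:33624104-33627282 Ser2P followed total Pol II, with scores of 1605 and 620 untreated and none after LPS. At chr19:17401391-17404891 total Pol II scored 1525 and 1058 and no Ser2P peak was called.

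The opposite set was small. In 56 members, 1.29% (0.978 to 1.68), total Pol II was absent from both untreated lists and present in both LPS lists, or 1.60% (1.21 to 2.07) of members without it in untreated cells, against a background of 3.91%. Ser2P went from 1.79% in each vector to 21.4% (11.6 to 34.4) in each. Because Ser2P is a form of the Pol II that chose this set, these shares are a description. Of the set, 55.4% (41.5 to 68.7) lay in H3K36me3 of untreated scrambled cells, against 22.8% of members as a whole. Total Pol II peaks were thus called at 45 min at these sites, which had no H3K27ac peak at 4 h. Inside H3K36me3 this Pol II cannot be told apart from that of a transcribed gene. At chr6:65563588-65566619 total Pol II scored 3100 and Ser2P 3193 and 3100 after LPS, with neither called before, and untreated H3K27ac had scored 2303 and 1493. Another named region, chr6:65596661-65599787, lies close by and also scored 3100 in both LPS lists, in Ser2P as in total Pol II.

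In the other 3 named regions of this set the untreated H3K27ac was weak. It scored 80.5 and 164 at chr9:111031127-111035160, where total Pol II scored 3100 in both LPS lists and no Ser2P peak was called. It scored 88.8 and 74.5 at chr15:98872429-98876421, where a Ser2P peak was already present in untreated shWdr82 cells. At chr11:49021737-49027012, inside H3K36me3 in all 4 lists, it scored 75.1 and 61.8, and total Pol II scored 1683 in scrambled and 3100 in shWdr82 cells after LPS.

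Ser2P was rare at members and changed little. It was called at 5.43% (4.77 to 6.14) in untreated scrambled and 5.59% (4.92 to 6.32) in untreated shWdr82 cells, and at 4.80% (4.19 to 5.48) and 6.37% (5.66 to 7.14) after LPS. Of members with a Ser2P peak before LPS, 45.5% had none after it in either vector, against 41.8% and 38.3% of all distal regions. New peaks appeared at 1.95% (1.55 to 2.43) of members against 2.41% in scrambled cells and at 3.52% (2.98 to 4.13) against 4.68% in shWdr82 cells. Retained enhancers, which began at 5.77% and 6.29%, reached 7.28% and 11.6%.

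After LPS the share of members with Ser2P was 1.57 points (0.945 to 2.20) higher in the shWdr82 than in the scrambled library, against 4.34 (3.73 to 4.95) at retained enhancers. The peak was present in shWdr82 cells at 3.15% (2.64 to 3.73) of members that lacked it in scrambled cells, against 3.73% over distal regions. Members were also split by H3K36me3, and the difference between the parts was not tested. Outside H3K36me3, Ser2P after LPS was called at 2.33% (1.85 to 2.90) of 3344 members in scrambled and 4.87% (4.17 to 5.66) in shWdr82 cells, and inside it at 13.2% (11.1 to 15.5) and 11.5% (9.54 to 13.6) of 986 members. Retained enhancers outside it differed in the same direction, at 4.57% (4.03 to 5.17) and 9.59% (8.82 to 10.4). Inside it they stood at 14.5% and 17.0%. Shares over all distal regions were not split in this way. The wider span of the shWdr82 LPS list, 60.6 Mb, moved with this result. With lists of equal peak number the shares over all members were 4.80% and 6.35%, and the part of peak width was not tested.

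H3K36me3 covered part of 22.8% (21.5 to 24.1) of members in untreated scrambled cells, 22.8% in untreated shWdr82 cells, and 21.7% and 23.0% after LPS. Of these, 14.6% in scrambled and 10.1% in shWdr82 cells had no peak after LPS, against 14.8% and 11.0% over distal regions, so members did not stand out. Primed sites, which are narrower, had similar shares, from 20.9% to 22.5%, and retained enhancers higher ones, from 26.5% to 27.4%. By length covered members were lowest. In untreated scrambled cells H3K36me3 covered 18.4% of their length, against 21.2% at primed sites and 22.2% at retained enhancers. After LPS these values were 16.6%, 19.2% and 20.5%. Members inside H3K36me3 held total Pol II more often, at 32.6% (29.6 to 35.6) falling to 18.2% (15.8 to 20.7) in scrambled cells and 28.5% falling to 21.1% in shWdr82 cells. Outside it the share fell from 11.0% (9.93 to 12.1) to 3.20% (2.63 to 3.85) and from 8.49% (7.57 to 9.49) to 4.75% (4.06 to 5.53). Total Pol II inside H3K36me3 cannot be told apart from that of a transcribed gene. A majority of members, 58.9% (57.5 to 60.4), had no peak of total Pol II, Ser2P or H3K36me3 in any list.

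Some features present before LPS went with different shares of loss of H3K27ac. Over the 13131 regions with H3K27ac in both untreated lists, 20.8% (19.4 to 22.2) of those with total Pol II in scrambled cells lost H3K27ac, against 37.1% (36.1 to 38.0) of those without. The gap narrowed at like H3K27ac scores, to 37.8% (33.3 to 42.3) against 40.4% (38.4 to 42.4) at scores of 200 to 500. It was widest in relative size at 3000 or more, at 2.87% (1.93 to 4.10) against 9.76% (7.95 to 11.8). Regions whose H3K4me1 peak was absent in untreated shWdr82 cells lost H3K27ac more often, at 39.8% (36.7 to 43.0) against 32.4% (31.6 to 33.3). Regions in H3K36me3 of untreated scrambled cells lost it at 29.3% (27.8 to 30.9) against 34.2% (33.3 to 35.2) outside. The gaps for H3K4me1 and H3K36me3 were not compared at like H3K27ac scores. With and without Ser2P the shares were 31.5% (28.1 to 34.9) and 33.1% (32.2 to 33.9), with overlapping intervals. By the score of the defining H3K4me1 peak, the loss was 41.3% (38.6 to 44.0) at 50 to 100 and 42.3% (40.1 to 44.5) at 100 to 200. It fell in the higher classes, to 11.0% (6.44 to 17.3) of 145 regions at 3000 or more. These classes, too, were not compared at like H3K27ac scores.

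Many members lay near one another, and so did retained enhancers. A second member was within 10 kb of 29.6% (28.2 to 30.9) of them, while a member was within that distance of 14.2% (13.4 to 15.0) of retained enhancers and 9.16% (8.77 to 9.58) of primed sites. Chained at 50 kb, 2421 members (55.9%) fell into groups, of which 65 held 5 or more, and 1909 stood alone. Of retained enhancers, 47.0% (45.9 to 48.2) lay within 10 kb of another. They number 7372 against 4330 members, and nearness at equal numbers was not computed. Neighbours under 1 acetylated peak tend to fall into the same class by the rule. Such peaks were shared by 320 members in the empty vector list and 383 in the shWdr82 list, and their part in this nearness was not tested. On no chromosome were losses missing: the share of acetylated regions lost ran from 27.9% (24.7 to 31.2) on chromosome 10 to 38.8% (34.0 to 43.8) on X, with a median of 33.9%.

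Acetylation that remained or arose after LPS lay near many members, but regions of gained H3K27ac less so. The nearest LPS H3K27ac peak was a median of 11472 bp away (17534 bp for primed sites), and 84.9% (83.8 to 86.0) of members had one within 50 kb. Of 39645 merged H3K27ac regions, 4933 were held by both LPS lists alone. One of these lay within 50 kb of 16.0% (14.9 to 17.1) of members, 23.4% (22.8 to 24.0) of primed sites and 36.0% (34.9 to 37.1) of retained enhancers. When members and gained regions were both drawn on the empty vector alone the values were 26.7%, 32.9% and 50.2%, and on shWdr82 alone 24.3%, 31.1% and 47.5%, in the same order. These distances rest on the lists that chose the members and are a description.

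The largest group lies at chr2:166012138-166319007, where 19 members stretch over 307 kb among 3 retained enhancers and 1 primed site. Untreated H3K27ac scores of its members ran from 75.5 to 3100 in the empty vector list and from 106 to 3100 in the shWdr82 list. H3K27ac peaks over the stretch covered 87.6 and 113 kb in untreated cells and 17.3 and 18.8 kb after LPS. H3K4me1, taken at an earlier time after LPS, covered 75.3 and 91.8 kb before it and 81.8 and 85.5 kb after. All 4 H3K4me1 lists held a peak at 16 of the 19 members. Total Pol II was called at 4 members in scrambled and 3 in shWdr82 cells before LPS and at none in either after it.

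The first members described here had strong H3K27ac and total Pol II before LPS, which most members of the group lacked. At chr2:166282590-166289238 H3K27ac scored 2112 and 2661, and H3K4me1 went from 1007 and 1624 to 2166 and 1792 with LPS. Total Pol II there scored 57.5 and 148 before LPS and had no peak after it. At chr2:166085289-166088508 H3K27ac scored 2547 and 3100 over weak H3K4me1, with a score of 56.8 in untreated scrambled cells and 301 after LPS. Total Pol II at that member scored 205 and 95.6 before LPS. A weaker member, at chr2:166156768-166158049, had H3K27ac scores of 75.5 and 182 and no total Pol II peak in any list. Its H3K4me1 scored 62.9 and 222 before LPS and had no peak in either LPS list. The 3 retained enhancers in the stretch all had untreated H3K27ac scores of 3100 in both lists and lower ones after LPS, from 263 to 1975 in the empty vector and from 475 to 1590 in the shWdr82 list.

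**Figure D5:**
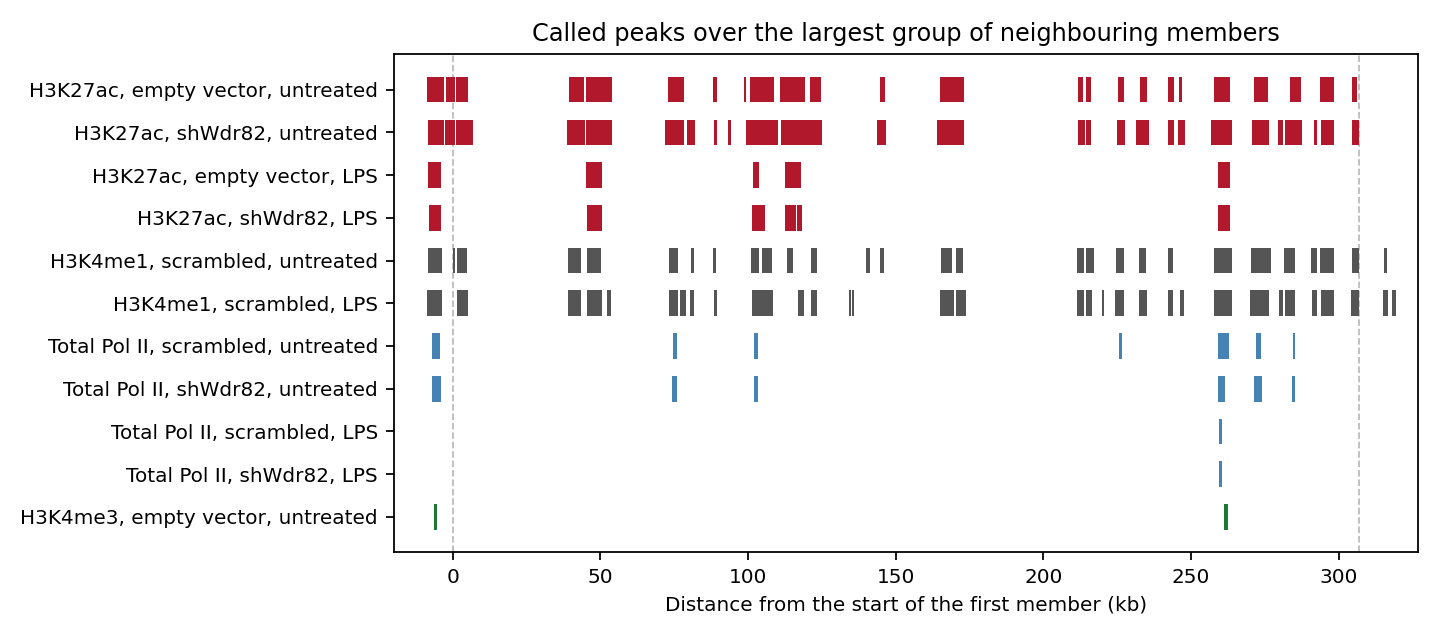
Called peaks (bars) of each list named at the left, over the largest group of members, by distance from the start of the first member (x axis, kb); dashed lines mark the ends of the group at 0 and 307 kb. H3K27ac falls from rows that cover 87.6 and 113 kb to rows that cover 17.3 and 18.8 kb with LPS. H3K4me1 stays, and 1 total Pol II peak is left within the lines in each LPS list, where H3K4me3 was also called. The LPS lists of H3K4me1 and total Pol II come from an earlier time than those of H3K27ac.

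Each of the next 2 groups held 9 members. That at chr9:15971023-16112866 spans 142 kb, and all 9 members had H3K4me1 in all 4 lists and total Pol II in none. Their untreated H3K27ac scores ran from 86.2 to 1118 in the empty vector list and from 51.3 to 1846 in the shWdr82 list, and a retained enhancer stood among them. That at chr19:17290433-17463184 spans 173 kb and mixes its 9 members with 7 retained enhancers. Total Pol II was called at 2 of these members in each vector before LPS and at none after it.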

How the data were processed

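Chromatin immunoprecipitation and sequencing gave 24 peak lists, 1 per library, of 6 antibodies. The submitters' processing notes name Bowtie 0.12.7, MACS 1.4 and the mm9 build; the control library behind the calls and their threshold were not given in the sources used here. Each deposited peak has a score that the authors obtained from peak calling, used here only to describe, rank or filter peaks of a list. Depth is unknown, so no depth correction was made.

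From the lists, overlap meant at least 1 bp shared, and positions are counted from 1. Where several peaks overlapped a region the highest score was taken. Scripts ran in Python 3.11.15 with numpy 2.4.6 and scipy 1.17.1, figures were drawn with matplotlib 3.10.9, and the selection was tested on simulated lists with planted members. With 1 library per group no test was run; intervals are at 95% and cover counting error only. Members, comparison classes and results were chosen with earlier results of these data known. Regions named are the 10 members with the highest lower untreated H3K27ac score, the 5 highest with total Pol II before LPS alone and the 5 highest with it after LPS alone, the 3 largest groups chained at 50 kb, and those at the limits. The single members described within the largest group, the loss of total Pol II, the split into whole and partial losses and the comparison at like H3K27ac scores were chosen after seeing the data. Alternatives varied the score minimum, distances, cover, vectors and list length. Gene names and sequence motifs were not analysed here, since the gene table at hand is on another build (GRCm38).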

Additional observations from a re-analysis of the deposited data

Results flagged for a closer look

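Under the same contrast, effects at members had opposite signs in a pair of groups in 3 cases, each with 1 library per group, and none of these differences was tested. Against scrambled cells, shWdr82 cells had total Pol II at fewer members without LPS (-2.84 percentage points) and at more with it (1.87). With lists of equal length the shares were 9.77% in scrambled and 9.58% in shWdr82 cells without LPS, and 6.61% and 8.41% with it. LPS changed the share of members with Ser2P by -0.624 points (-1.24 to -0.00485) in scrambled and 0.785 points (0.0642 to 1.51) in shWdr82 cells. It changed the share with H3K36me3 by -1.11 points in scrambled and 0.185 points in shWdr82 cells, where the interval of the latter (-0.468 to 0.838) includes 0.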

How the results depend on the processing

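No paired analysis was possible because the labels give no replicate numbers and the results come from no test. Limits: the depth is unknown, H3K27ac and the other marks were taken at different times after LPS, and a missing peak may be a weak one. The number of members ranged from 3001 (untreated H3K27ac score of at least 100) to 6459 (shWdr82 libraries alone). Total Pol II was lower after LPS in both vectors under all 14 alternatives tried for it. Of these, only the cut of the total Pol II lists to equal length removed their difference in length. Where values moved, the cause was not tested beyond what each alternative removes. Values below follow the order scrambled untreated, shWdr82 untreated, scrambled LPS, shWdr82 LPS, in percent of members.

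With readout peaks of score 100 or more, shares were 81.0, 87.3 and 81.5 for H3K4me1 outside the defining list, 9.95, 8.29, 4.62 and 6.24 for total Pol II, 3.72, 4.11, 3.39 and 4.99 for Ser2P, and 20.9, 21.0, 19.1 and 21.0 for H3K36me3. With a peak allowed within 1000 bp they were for H3K4me1 94.0, 96.6 and 93.9, then 18.7, 16.1, 8.29 and 10.0 for total Pol II, 6.47, 6.67, 5.77 and 7.83 for Ser2P, and 27.4, 27.3, 25.8 and 27.8 for H3K36me3. Without members in untreated H3K36me3 they were 11.0, 8.49, 3.20 and 4.75 for total Pol II, 2.81, 3.17, 2.33 and 4.87 for Ser2P, and 0, 4.10, 2.87 and 4.22 for H3K36me3. With equal list lengths, total Pol II in untreated cells was 9.77 and 9.58, H3K4me1 in scrambled cells after LPS 93.5, and H3K36me3 in shWdr82 cells after LPS 21.6. With 50% of the member covered by H3K27ac, H3K36me3 was 21.4, 20.4 and 21.4 in scrambled untreated, scrambled LPS and shWdr82 LPS cells, and total Pol II in scrambled cells after LPS 5.81. Drawn on the empty vector alone, H3K4me1 in untreated shWdr82 cells was 90.3 and total Pol II in scrambled cells after LPS 7.79. With an untreated H3K27ac score of at least 100, total Pol II in untreated scrambled cells was 17.3.

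The share of total Pol II members with none after LPS, a result chosen after seeing the data, was 80.3 in scrambled and 75.6 in shWdr82 cells with an H3K27ac score of at least 100, 71.0 in scrambled cells for the empty vector alone, and 86.1 and 81.0 outside H3K36me3. With equal list lengths it was 68.1 and 67.0 at members against 50.3 and 51.1 at retained enhancers, and with Pol II scores of 100 or more 68.2 and 64.1 against 50.8 and 49.3. The median distance to an LPS H3K27ac peak was 13338 bp with none allowed within 1000 bp, 12730 bp at 5000 bp from H3K4me3, 12577 bp for the empty vector and 12254 bp for shWdr82 alone, 13200 bp outside H3K36me3 and, in an alternative chosen after seeing the data, 13081 bp for whole losses. Gained regions lay within 50 kb of 26.7% for the empty vector alone, 24.3% for shWdr82 alone and 17.8% with equal list lengths. Empty vector losses shared by shWdr82 were 84.4% at scores of at least 100 and 84.3% with equal list lengths. The reverse was 82.7% at scores of at least 100 and 83.9% with no LPS peak within 1000 bp. The other 205 values moved by less than the interval, or for the number of members by less than the factor, set for them.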
